A study of Mus musculus with 6 samples.

Results

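SRF and the factors that act with it were followed in bulk RNA-Seq libraries of the ductus arteriosus (DA) from mouse embryos at E17.5. The 10 regulators are *Srf*, its coactivators *Myocd*, *Mkl1* and *Mkl2*, the ternary complex factor *Elk1*, and the muscle lineage factors *Mef2a*, *Mef2c*, *Mef2d*, *Gata6* and *Tead1*. They are a named set, taken by gene symbol with earlier results of these libraries known, and all 10 were found among the 23997 genes of the deposited table. The question was whether these upstream regulators are lower where the smooth muscle contractile genes are lower. Embryos were C57BL/6. There were 3 libraries from wild-type (WT) littermates, numbered 0, 1 and 2, and 3 from embryos of the genotype Prdm6f/f; SM22-Cre, titled KO and numbered in the same way. In the latter, the Cre that removes the floxed *Prdm6* is driven by the *SM22* (*Tagln*) promoter, which is active in smooth muscle and for a time in the embryonic heart. Whether the WT littermates carried the Cre transgene is not stated. The labels do not say whether a library came from 1 embryo or from several, so p values measure the spread between these libraries.

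SRF is a MADS-box protein that binds DNA at the CArG box, and by itself it activates transcription weakly. Myocardin and the related MRTFs, which *Mkl1* and *Mkl2* encode, bind SRF and switch on genes of the smooth muscle contractile apparatus and the actin cytoskeleton, while ternary complex factors such as ELK1 compete for the same surface of SRF and direct it to growth-response genes. Actin monomers hold the MRTFs in the cytoplasm, so that actin polymerization releases them to the nucleus, whereas myocardin is nuclear and restricted to smooth and cardiac muscle. MEF2 proteins, GATA6 and TEAD1 bind other elements of muscle promoters and are needed in smooth muscle, in the heart or in both.

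The deposited unit is FPKM, a count of fragments corrected for both the length of the transcript and the size of the library, so that levels of different genes can be set side by side. Total depth is unknown. Taken from the most frequent ratio of low values between WT 1 and each library, relative depth ranged from 0.936 to 1.19 with WT 1 set to 1. There were 3 libraries that stood apart. Heart muscle transcripts, summed over 21 genes, were at 2149 FPKM in WT 1 and 2489 in KO 2, against 174 to 784 in the other libraries. The precursor of ribosomal RNA, *Rn45s*, stood at 0 in every WT library and at 3060, 3806 and 4520 FPKM in KO 0, 1 and 2, and its part in the results was not tested. A 0 in this table can be a failed estimate, since 34 to 61 of the 3506 genes with a mean of at least 20 FPKM were listed at 0 in any 1 library. KO 0 held both *Xist* (81.0 FPKM) and the Y-linked *Ddx3y* (26.4 FPKM). *Xist* was at 67.0 and 82.8 FPKM in WT 0 and KO 1, with *Ddx3y* at 0 and 0.383 FPKM. In WT 1, WT 2 and KO 2, *Ddx3y* was at 24.0, 23.4 and 20.1 FPKM and *Xist* at 0.053, 0.043 and 0.047 FPKM. Both patterns thus occurred in each group, and the part of sex in the results was not tested. *Prdm6* itself, on chromosome 18, was at 41.7, 48.4 and 19.8 FPKM in WT 0, 1 and 2 and at 48.6, 27.1 and 15.4 FPKM in KO 0, 1 and 2. The highest of these values lies in a library labelled KO, so the level of the whole gene does not check the labels, and every direction below rests on them. In bulk tissue, fewer cells of a type and less RNA per cell cannot be told apart.

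*Srf* was lower in the libraries labelled KO, and *Mef2c* was higher with a narrow gap between the groups. The mean levels of *Myocd*, *Mkl1*, *Mef2d* and *Elk1* were lower, with groups that overlapped or nearly touched. Those of *Mkl2*, *Mef2a*, *Gata6* and *Tead1* were nearly equal. None of the 10 regulators passed the test across all genes (limma on log2(FPKM + 0.1), Benjamini-Hochberg adjusted p under 0.05), a threshold that 1 of the 12955 genes tested, *Rn45s*, passed (0.00772%). At an unadjusted p under 0.05 the same test gave 1 regulator, *Srf*, on the lower side and 0 on the higher side, beside 8.28% of all genes (4.97% lower and 3.31% higher). For 3 of the 10 the groups did not overlap, *Srf* and *Mef2d* with all libraries labelled KO below all WT libraries and *Mef2c* with all above. Over all genes tested, 7.84% were separated in this way on the lower side and 8.21% on the higher side, together 16.1%. The median log2 fold change of the 10 regulators was -0.25, with 8 of 10 below 0, against a median of 0.072 over all genes tested. Fold changes are on the log2(FPKM + 0.1) scale, which understates the change of low genes.

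**Figure D1:**
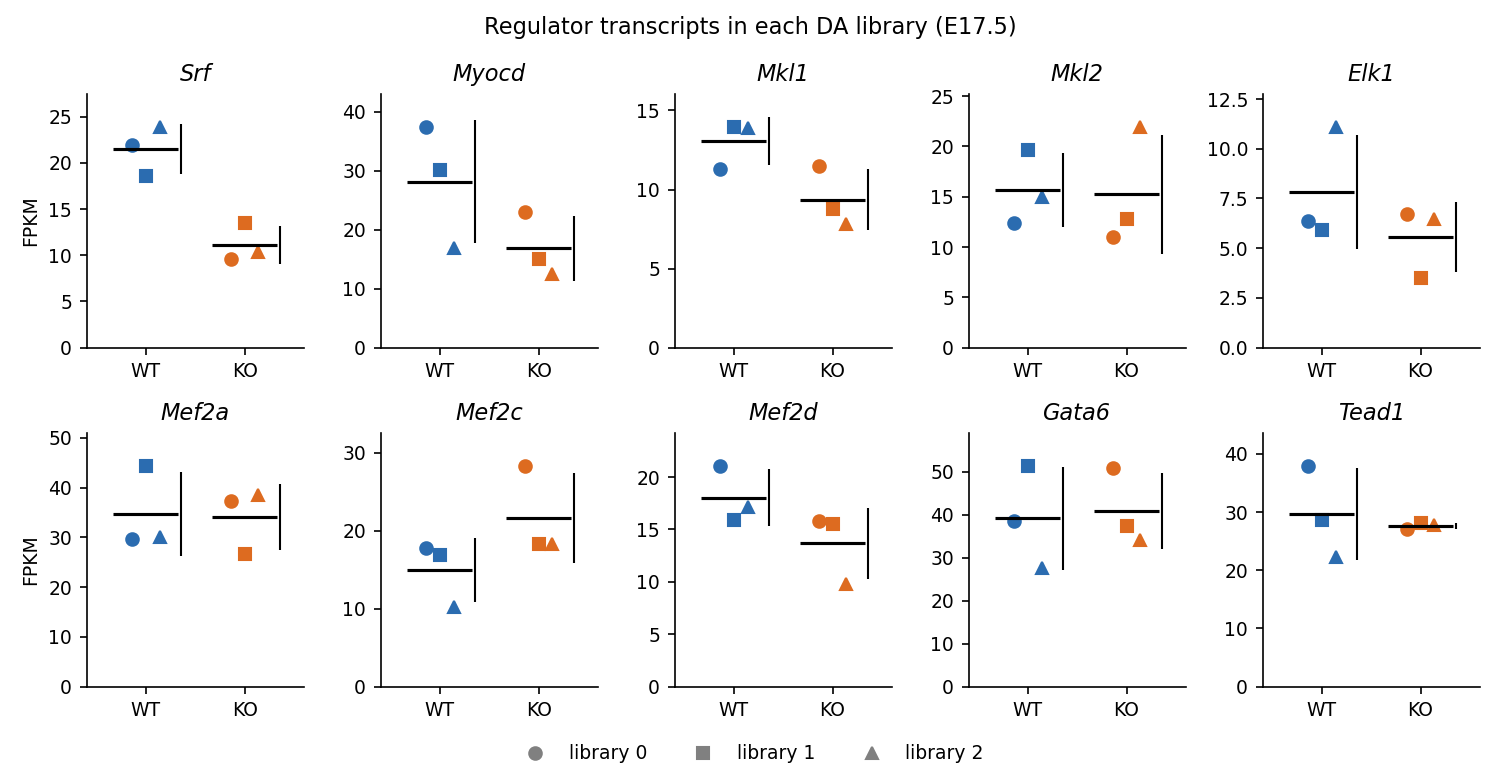
FPKM of the 10 regulators in each library, with WT in blue and the libraries labelled KO in orange. Symbols mark the library number, horizontal lines the mean and vertical lines 1 SD to either side (n = 3). For *Srf* the 3 values labelled KO lie between 9.57 and 13.5 FPKM, all under the lowest WT value of 18.6.

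*Srf* occupies 46548329 to 46556175 of chromosome 17 on the minus strand (GRCm38, which is mm10, as are all positions here, from GENCODE vM21). Its own promoter is shown because it carries the letters that SRF binds. The following bases end just before the RefSeq start site (GRCm38.p6, chr17:46556163-46556412, minus strand), and capitals mark 2 CArG boxes and 1 ETS core, CCGGAA, of the kind that ELK1 and its relatives bind.
*Srf* promoter: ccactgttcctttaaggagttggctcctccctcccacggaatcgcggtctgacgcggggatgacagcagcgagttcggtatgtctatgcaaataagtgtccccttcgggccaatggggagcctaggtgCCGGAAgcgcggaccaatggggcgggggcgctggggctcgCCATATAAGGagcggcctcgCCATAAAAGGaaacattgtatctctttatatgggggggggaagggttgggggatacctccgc
The boxes start 82 and 62 bases upstream of the start site. Of 32851 RefSeq promoter windows of the same length, from 250 bases before to 50 after a start site, 1.63% hold a CArG box and 14.9% the letters CCGGAA on either strand. Windows were found for 7 of the 10 regulators, and among these *Srf* alone had a CArG box in the window.

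The *Srf* transcript was at 21.9, 18.6 and 23.9 FPKM in WT 0, 1 and 2 and at 9.57, 13.5 and 10.3 FPKM in KO 0, 1 and 2. Every library labelled KO was below every WT library, and the gap between the groups (13.5 to 18.6) was wider than the SD of either group (2.68 in WT and 2.06 in KO). The log2 fold change was -0.95 (standard error 0.24, 95% interval -1.51 to -0.39), or a level 0.517 times that of WT. In limma p was 0.0047 before and 0.463 after adjustment, and the two-sided exact permutation test gave p = 0.1, the smallest that 3 against 3 libraries allow. By log2 fold change, *Srf* stood at the 6.16 percentile of all genes tested.

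*Myocd*, on chromosome 11 from 65176561 to 65269989, encodes myocardin, the coactivator specific to smooth and cardiac muscle. It was at 37.5, 30.1 and 16.8 FPKM in WT 0, 1 and 2 and at 23.1, 14.96 and 12.4 FPKM in KO 0, 1 and 2. The groups overlap because KO 0 lies above WT 2, while KO 1 and KO 2 were the lowest libraries of the 6. Its log2 fold change was -0.71 (standard error 0.36, 95% interval -1.55 to 0.13, adjusted p = 0.633 from limma; two-sided exact permutation p = 0.2). It was -0.47 without WT 0, -1.04 without WT 2 and -0.43 without WT 1 and KO 2, the libraries with the most heart transcripts. The fold of 0.611 was close to that of *Srf*, but the spread among the WT libraries (SD 10.4 around a mean of 28.1) was wider.

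The MRTF genes were read singly, and the difference between them was not tested. *Mkl1* (*Mrtfa*), on chromosome 15 from 81012281 to 81190757, was at 11.3, 14.0 and 13.9 FPKM in WT and at 11.5, 8.77 and 7.82 FPKM in the libraries labelled KO. KO 0 and WT 0 were nearly level and KO 1 and 2 were under all WT libraries. The log2 fold change was -0.49 (standard error 0.27, adjusted p = 0.652 from limma), and -0.32 without WT 1 and KO 2. *Mkl2* (*Mrtfb*), on chromosome 16 from 13256481 to 13417529, was at 12.4, 19.6 and 14.96 FPKM in WT and at 10.98, 12.8 and 21.97 FPKM in KO. Its lowest and highest values were both in libraries labelled KO, and the 95% interval of its log2 fold change ran from -0.85 to 0.69.

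Summed over *Myocd*, *Mkl1* and *Mkl2*, the coactivators of SRF were at 61.2, 63.7 and 45.7 FPKM in WT 0, 1 and 2 and at 45.5, 36.5 and 42.2 FPKM in KO 0, 1 and 2. Every sum labelled KO was below every WT sum, WT 2 and KO 0 by little. *Myocd* made up 61.2%, 47.2% and 36.8% of the sum in WT and 50.6%, 41.0% and 29.5% in KO, so the shares overlap. Per unit of *Srf*, the sum was 2.79, 3.42 and 1.91 in WT and 4.76, 2.71 and 4.10 in KO. The transcripts of SRF and of its coactivators were thus both at lower mean levels, and their ratio overlapped between the groups.

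*Elk1*, on the X chromosome from 20933395 to 20950608, encodes the ternary complex factor among the regulators and had the lowest level of the 10. It was at 6.38, 5.93 and 11.1 FPKM in WT and at 6.70, 3.53 and 6.45 FPKM in KO. Apart from the high WT 2 and the low KO 1, the libraries lay close together. The log2 fold change was -0.48 (standard error 0.43, adjusted p = 0.739 from limma). It was -0.20 without WT 2, -0.19 without KO 1 and -0.78 without WT 1 and KO 2. Of the other ternary complex factor genes, *Elk4* was at 26.2, 25.0 and 15.6 FPKM in WT and at 26.5, 32.4 and 30.7 FPKM in KO, with no overlap but nearly level between WT 0 and KO 0 (log2 fold change 0.45, adjusted p = 0.649 from limma). *Elk1* was the smallest part of the *Elk1*, *Elk3* and *Elk4* sum, between 5.60% and 23.8% of it in any library.

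The MEF2 genes encode MADS-box factors related to SRF. *Mef2c*, on chromosome 13 from 83504034 to 83667080, was at 17.8, 16.8 and 10.2 FPKM in WT 0, 1 and 2 and at 28.3, 18.3 and 18.3 FPKM in KO 0, 1 and 2. The groups did not overlap, with a narrow gap between WT 0 and the lower libraries labelled KO. The log2 fold change was 0.54 (standard error 0.31, 95% interval -0.17 to 1.251, adjusted p = 0.656 from limma; two-sided exact permutation p = 0.1). It was 0.33 without KO 0 and 0.29 without WT 2, which both move it by more than 1.5 times. *Mef2c* is also transcribed in heart muscle and endothelium. Endothelial genes summed to 450 to 638 FPKM in WT and 530 to 809 in KO. Of them, 2 of 13 were separated on the higher side, beside 8.21% of all genes tested. Heart muscle genes summed to 174 to 2149 FPKM in WT and 243 to 2489 in KO. The part of both sets in the *Mef2c* values was not tested.

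*Mef2d*, on chromosome 3 from 88142372 to 88172086, was at 21.1, 15.9 and 17.1 FPKM in WT and at 15.8, 15.5 and 9.78 FPKM in KO. The groups were separated only by the step from 15.8 in KO 0 to 15.9 in WT 1, and they overlapped after quantile normalization. The log2 fold change was -0.42 (standard error 0.27, adjusted p = 0.687 from limma), and -0.20 without KO 2. *Mef2a*, on chromosome 7 from 67231163 to 67372858, was the most abundant of the family, at 29.6, 44.4 and 29.995 FPKM in WT and 37.2, 26.6 and 38.6 FPKM in KO. Its log2 fold change was -0.016 with a 95% interval of -0.58 to 0.55. *Mef2b* was listed at 0 in all 6 libraries.

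*Mef2c* was also read as a share of the MEF2 transcripts. It made up 25.9%, 21.8% and 17.8% of the sum of *Mef2a*, *Mef2c* and *Mef2d* in WT 0, 1 and 2 and 34.9%, 30.3% and 27.5% in KO 0, 1 and 2. Every share labelled KO was above every WT share. The sum itself overlapped, at 57.4 to 77.1 FPKM in WT and 60.3 to 81.3 FPKM in KO. The shares were computed after the values were seen, and no test was made of them.

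**Figure D2:**
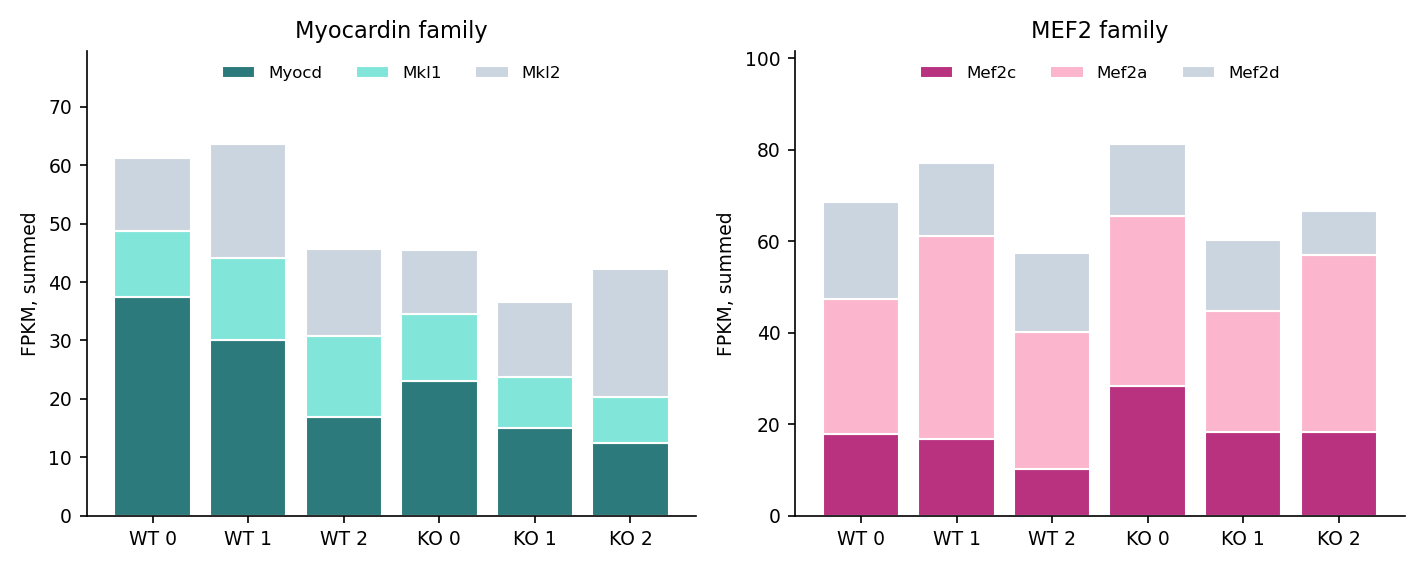
Summed FPKM of the myocardin family (left) and of the MEF2 family (right) in each library, as stacked bars with 1 color per gene. The *Mef2c* part of the MEF2 bar is larger in each library labelled KO (27.5% to 34.9%) than in any WT library (17.8% to 25.9%).

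*Gata6*, on chromosome 18 from 11052064 to 11085635, encodes the GATA factor of vascular smooth muscle and had the highest mean level of the 10 in both groups. It was at 38.6, 51.5 and 27.5 FPKM in WT and at 50.8, 37.4 and 34.2 FPKM in KO. The libraries of the groups were interleaved, and the log2 fold change was 0.083 (95% interval -0.55 to 0.72, adjusted p = 0.934 from limma). It was -0.15 without WT 2 and -0.086 without KO 0. Of the related genes, *Gata4* was listed at 0 in WT 0 and was at 3.09 to 8.68 FPKM in the other libraries.

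*Tead1*, on chromosome 7 from 112679318 to 112906807, encodes a TEA domain factor that binds the MCAT element and takes YAP and TAZ as coactivators. It was at 38.0, 28.6 and 22.3 FPKM in WT and at 27.1, 28.1 and 27.8 FPKM in KO. The values labelled KO lay within the range of the WT values, with a log2 fold change of -0.066 (95% interval -0.60 to 0.47, adjusted p = 0.940 from limma). *Tead1* was between 28.8% and 37.7% of the sum of *Tead1* to *Tead4*. Its coactivator genes *Yap1* and *Wwtr1* had log2 fold changes of -0.26 and -0.080 (adjusted p = 0.760 and 0.886 from limma), with overlap between the groups.

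In WT the order of mean FPKM was *Gata6* (39.2), *Mef2a* (34.7), *Tead1* (29.6), *Myocd* (28.1), *Srf* (21.5), *Mef2d* (18.0), *Mkl2* (15.7), *Mef2c* (14.9), *Mkl1* (13.1) and *Elk1* (7.81). Of the 9 neighboring pairs, *Srf* against *Mef2d* and *Mkl1* against *Elk1* differed by more than the larger SD of the pair, and the other 7 did not. In the libraries labelled KO, *Gata6*, *Mef2a* and *Tead1* led again, *Mef2c* came next, ahead of *Myocd*, and *Srf* stood below *Mkl2* and *Mef2d*. There *Tead1* against *Mef2c* and *Mkl1* against *Elk1* differed by more than the larger SD.

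The contractile genes, on which these regulators act, were read with the same test. Of 30 listed genes of the smooth muscle contractile apparatus, all 30 had a log2 fold change below 0, with a median of -0.82. The changes nearest to 0 were those of *Synm* (-0.014) and *Ppp1r12b* (-0.081). In limma 0 passed the adjusted threshold and 12 had an unadjusted p under 0.05, all lower, beside 4.97% of all genes tested on that side. The groups were separated for 13 of the 30 (43.3%), all on the lower side, beside 7.84% of all genes tested on that side. The list was written with earlier results of these libraries known, so its direction is not independent evidence. *Tpm2*, a tropomyosin, was at 290, 176 and 280 FPKM in WT and at 57.6, 67.2 and 42.9 FPKM in KO (log2 fold change -2.14, adjusted p = 0.170 from limma). *Lmod1*, a leiomodin that nucleates actin filaments, and *Cnn1*, calponin, had log2 fold changes of -2.05 and -2.02 (adjusted p = 0.414 and 0.463 from limma). *Itga8*, an integrin subunit of smooth muscle, stood at -1.71 and *Hspb6*, a small heat shock protein of muscle, at -2.05 (adjusted p = 0.502 and 0.414 from limma). *Myh11*, the smooth muscle myosin heavy chain, had -1.81, *Actg2*, smooth muscle gamma-actin, -1.57, *Tagln* -1.13, and *Acta2*, smooth muscle alpha-actin, -0.85.

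**Figure D3:**
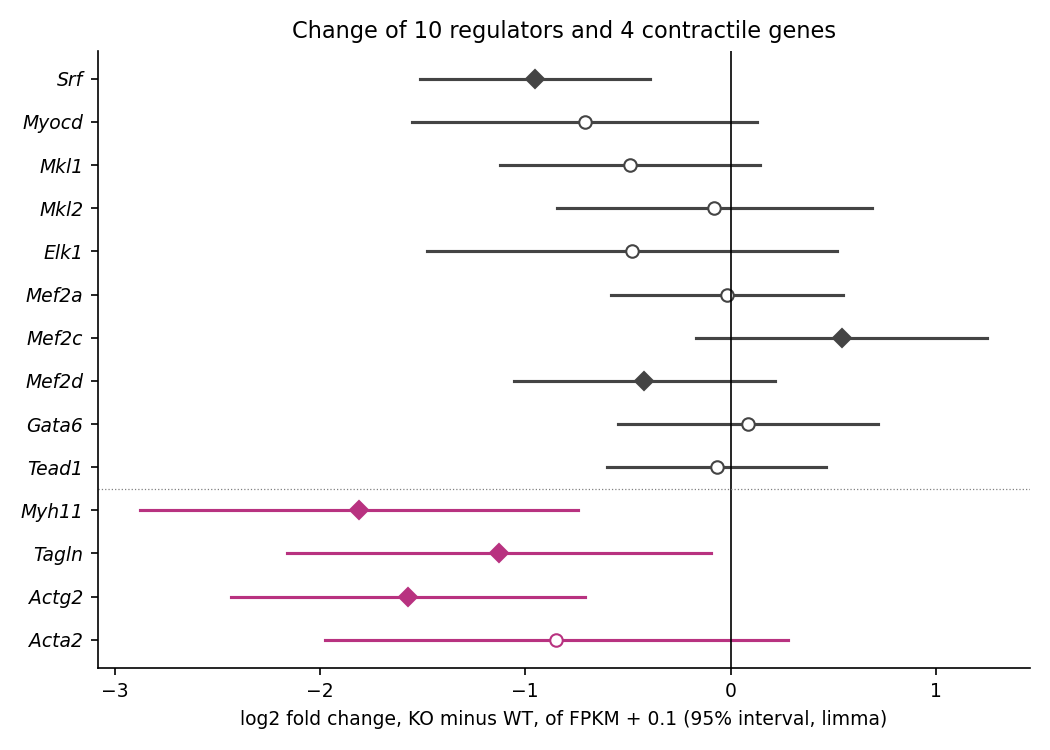
Log2 fold change of FPKM + 0.1, KO minus WT, of the 10 regulators (grey) and 4 contractile genes (pink), with 95% intervals from limma before any adjustment for the number of genes. Filled diamonds mark genes whose groups do not overlap. Among the regulators the interval of *Srf* (-1.51 to -0.39) alone lies wholly below 0.

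The contractile genes were set beside *Myocd* with 1 value per library, the median log2(FPKM + 0.1) of the 30 contractile genes minus that of *Myocd*. It was 2.38, 1.81 and 2.66 in WT 0, 1 and 2 and 1.59, 2.22 and 1.86 in KO 0, 1 and 2, so the groups overlap. The mean was 2.28 ± 0.44 (SD, n = 3) in WT and 1.89 ± 0.31 (SD, n = 3) in KO. The difference was -0.39 (two-sided exact permutation p = 0.3, where 3 libraries against 3 allow no p below 0.1). Relative to *Srf*, the same value was 3.15, 2.50 and 2.16 in WT and 2.85, 2.37 and 2.13 in KO. That difference was smaller, at -0.15 (two-sided exact permutation p = 0.6). *Myh11* taken alone was at 19.99, 9.44 and 18.3 times the FPKM of *Myocd* in WT and at 6.40, 10.5 and 5.27 times in KO.

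Library by library, the median of the contractile genes was highest in WT 0 (7.61 on the log2 scale) and lowest in KO 2 (5.51). WT 0 also had the highest *Myocd* and *Mef2d*, and KO 2 the lowest *Myocd*, *Mkl1* and *Mef2d*. WT 1 and WT 2 had nearly the same contractile median (6.72 and 6.74) but differed in *Myocd* (30.1 and 16.8 FPKM), and KO 0 and KO 1, both at 6.13, did so too (23.1 and 14.96 FPKM). *Srf*, in turn, was higher in KO 1 than in KO 0. Within a group, the order of the libraries by *Srf* was not their order by the contractile genes.

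**Figure D4:**
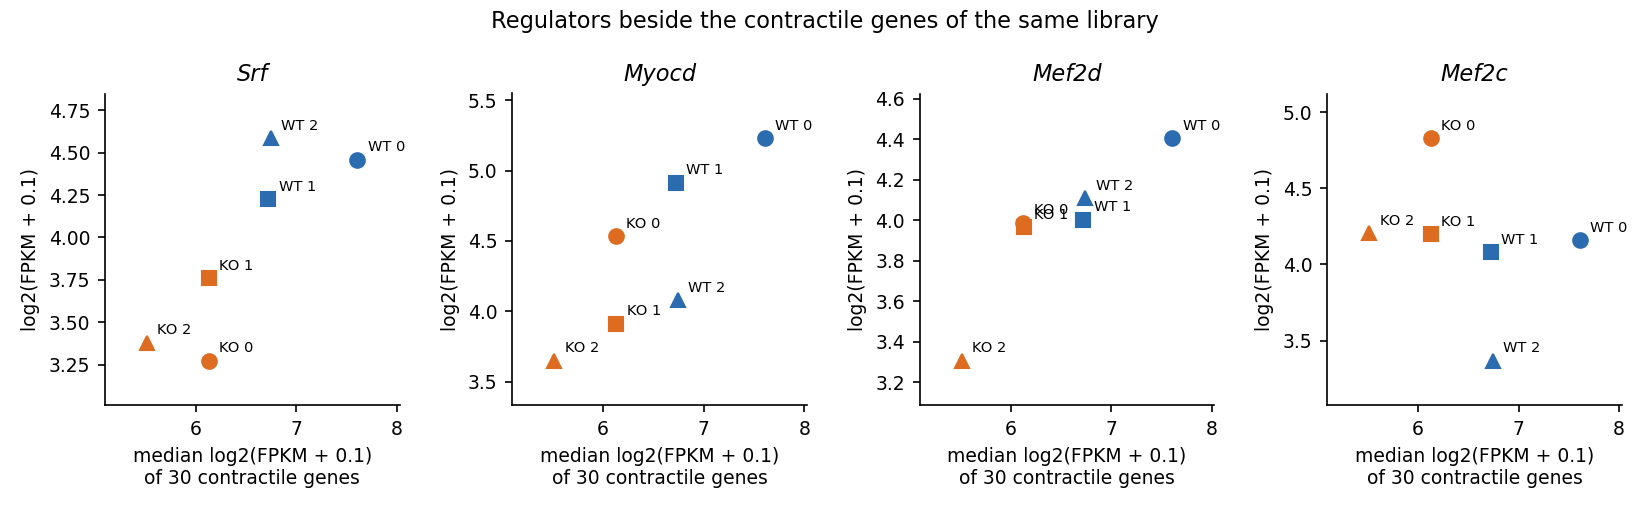
Log2(FPKM + 0.1) of *Srf*, *Myocd*, *Mef2d* and *Mef2c* (vertical axes) against the median log2(FPKM + 0.1) of 30 contractile genes (horizontal axes), 1 point per library, WT in blue and KO in orange. The libraries labelled KO lie to the left (5.51 to 6.13) of the WT libraries (6.72 to 7.61), below them for *Srf* and *Mef2d*, and above them for *Mef2c*.

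Targets of SRF outside the contractile list were described by the partner they are listed under. Of 16 tested genes known to respond to MRTF and SRF, mostly of focal adhesions and the actin cytoskeleton, 14 were lower and 2 higher by log2 fold change, with a median of -0.32. In limma 0 passed the adjusted threshold and 3 had an unadjusted p under 0.05, all lower, beside 4.97% of all genes tested on that side. Separated on the lower side were *Ctgf* (log2 fold change -1.42), a matricellular protein, *Zyx* (-0.86), the focal adhesion protein zyxin, *Filip1l* (-0.65) and *Actb* (-0.34). They were 25% of the list, beside 7.84% of all genes tested on that side. Of 12 tested genes that respond to ternary complex factors and SRF, 7 were lower and 5 higher, with a median of -0.20. In limma 0 passed the adjusted threshold and 1 had an unadjusted p under 0.05, on the lower side, beside 4.97% of all genes tested on that side and 8.28% on either side. *Egr1* and *Ier5* (log2 fold change -0.54) were separated, both on the lower side. They were 16.7% of the list, beside 7.84% of all genes tested on that side and 16.1% on either side. *Egr1*, an immediate early transcription factor, was at 13.6, 12.5 and 11.7 FPKM in WT and at 6.15, 6.28 and 4.99 FPKM in KO (log2 fold change -1.11, adjusted p = 0.463 from limma). The *Egr1* groups lay far apart for their spread, whereas those of *Fos*, of the same class, overlapped at 1.53 to 3.92 FPKM in WT and 1.70 to 8.03 FPKM in KO.

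Promoters of some of these genes hold a CArG box in the RefSeq window. They are shown with 10 bases to either side and the box in capitals, because their letters are what SRF binds. The windows cover 25 of the 30 contractile genes and 14 of the 18 listed MRTF targets, and a box was found in 3 and 6 of them (*Fhl2* and *Vil1*, not printed, included). A strict match was required, and no match says only that these letters are not in the window.
*Myl6* (chr10:128493040-128493069, minus strand): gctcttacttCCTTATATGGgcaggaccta
*Myl9* (chr2:156775293-156775322, plus strand): caagcagaggCCTAATAAGGccgggctggc
*Fhl1* (chrX:56779571-56779600, plus strand): ccttggatcaCCTAAAATGGttaagaattt
*Filip1l* (chr16:57549170-57549199, plus strand): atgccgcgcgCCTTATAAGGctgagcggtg
*Vcl* (chr14:20929161-20929190, plus strand): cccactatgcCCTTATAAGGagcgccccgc
*Lima1* (chr15:99820177-99820206, minus strand): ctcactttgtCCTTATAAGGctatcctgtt
*Actg1* (chr11:120348566-120348595, minus strand): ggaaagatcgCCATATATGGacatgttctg
Beside these letters, the log2 fold changes were -0.60 for *Myl6* and -0.74 for *Myl9*, the light chains of smooth muscle myosin, and -0.27 for *Fhl1*, a LIM-domain protein. They were -0.65 for *Filip1l*, -0.44 for *Vcl*, which encodes vinculin, and -0.17 for *Actg1*, cytoplasmic gamma-actin. *Lima1*, with the same box letters as *Filip1l* and *Vcl*, had a log2 fold change of 0.23. Among 11 ternary complex factor targets with a window, *Egr2* and *Dusp5* hold boxes that are not printed. *Egr2* was below the filter, and *Dusp5* was listed at 0 in WT 0, WT 2 and KO 0 and at 1.70 to 3.45 FPKM in the other libraries. *Filip1l* alone among these 7 had groups that did not overlap.

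Of 20 tested targets of YAP and TEAD, genes of growth and cell adhesion among them, 12 were lower and 8 higher, with a median log2 fold change of -0.098. In limma 0 passed the adjusted threshold. At an unadjusted p under 0.05 in limma 4 were lower and 1 higher, beside 4.97% and 3.31% of all genes tested. The groups were separated for 6 of the 20 (30%), beside 16.1% of all genes tested. *F3*, tissue factor, was at 20.4, 4.58 and 14.7 FPKM in WT and at 3.50, 0.846 and 1.38 FPKM in KO (log2 fold change -2.71, adjusted p = 0.500 from limma). *Ctgf*, *Nt5e*, *Tgfb2* and *Axl* were separated on the same side, and *Fjx1* on the other. *Ctgf* and *Ankrd1* are members of the MRTF target list as well, and *Cyr61* of the ternary complex factor list.

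Other genes that set the activity of these regulators were read from lists of partners. Among 20 coactivators and partners, 10 were lower and 10 higher (median -0.038). The groups were separated for 1 on the lower and 1 on the higher side (10%, beside 16.1% of all genes tested). *Csrp1* and *Csrp2*, LIM proteins that bridge SRF and GATA factors, had log2 fold changes of -0.88 and -0.99 (adjusted p = 0.552 and 0.545 from limma). *Csrp1* is a member of the contractile list as well. Among 19 tested repressors, 11 were lower and 8 higher (median -0.029). Here 1 was separated on the lower and 2 on the higher side, 15.8% of the list, close to the 16.1% of all genes tested. *Foxo4*, a forkhead factor that binds myocardin and holds it inactive, was at 6.11, 8.65 and 1.46 FPKM in WT and at 11.7, 15.3 and 12.0 FPKM in KO (log2 fold change 1.57, adjusted p = 0.591 from limma). *Scai*, a suppressor of MRTF-dependent transcription, was at 5.92, 5.66 and 2.13 FPKM against 7.10, 6.48 and 7.62 FPKM (log2 fold change 0.75, adjusted p = 0.687 from limma). In both repressors the groups did not overlap and WT 2 was far below the other libraries. *Vgll4*, which competes with YAP for TEAD, was separated on the lower side (log2 fold change -0.46), and *Klf4*, a zinc finger repressor of smooth muscle genes, was at 22.8 to 33.1 FPKM in WT and 17.54 to 24.3 FPKM in KO.

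Of 8 tested paralogs of the regulators, 7 were higher and 1 lower by log2 fold change, with a median of 0.50. Of them 1, *Elk4*, was separated (12.5%, beside 16.1% of all genes tested). Among the higher, *Gata4* (1.80) and *Gata5* (1.02) were listed at 0 in WT 0, and *Tead4* (1.26) had a mean of 2.14 FPKM.

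**Figure D5:**
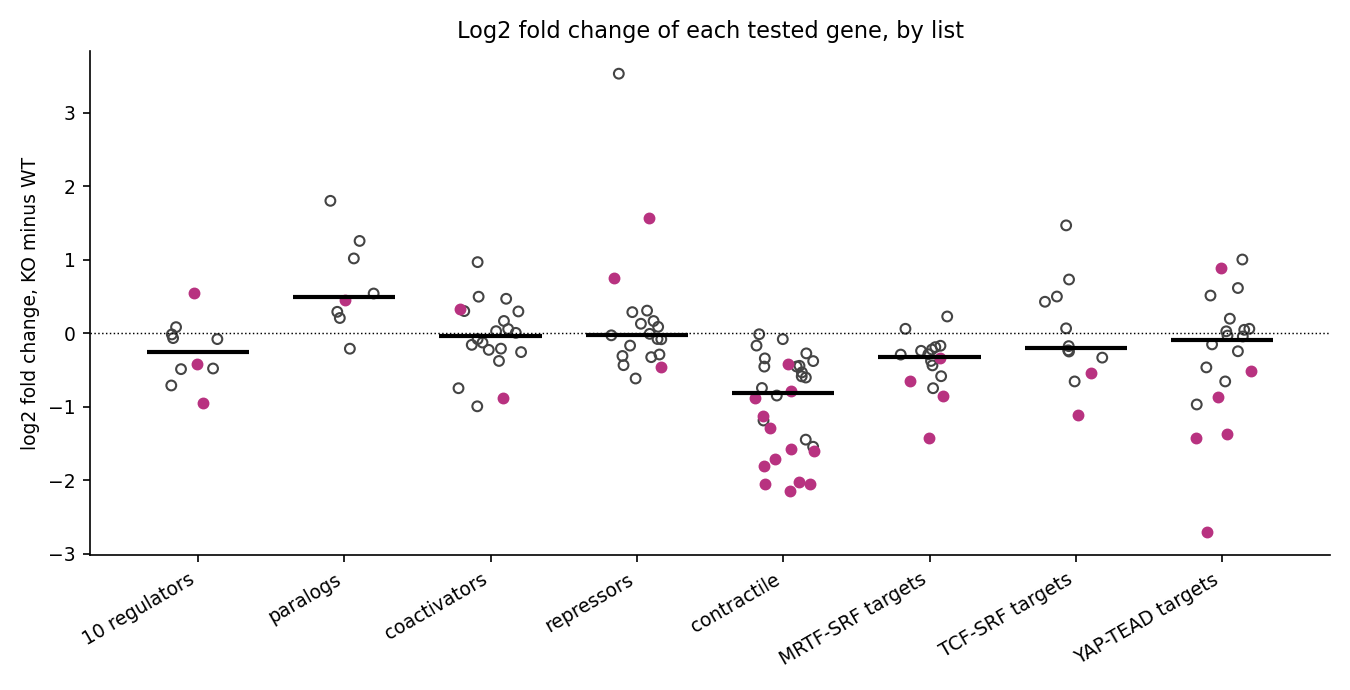
Log2 fold change (KO minus WT) of each tested gene, by list. Points are genes, filled in pink where the groups do not overlap, and bars are medians. The contractile genes lie wholly below 0 (median -0.82), and the 10 regulators spread from -0.95 to 0.54.

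The genes whose profile over the 6 libraries was most like that of a regulator were found by the mean absolute difference of their centered log2 values, among the 9121 genes whose mean was 5 FPKM or more. For *Srf* these were *Cep250* (0.058), *Cd248* (0.11), *Cthrc1* (0.11), *Myl12b* (0.12) and *Thumpd1* (0.12). *Cd248* was at 124, 108 and 152 FPKM in WT and 50.4, 76.9 and 70.7 FPKM in KO. For *Myocd* they were *Mfap4* (0.14), *Fhl3* (0.15), *Stom* (0.16), *Pigc* (0.17) and *Rab32* (0.17). *Mfap4*, a microfibril-associated protein, was at 344, 313 and 214 FPKM in WT and 199, 140 and 122 FPKM in KO.

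Markers of other cells were read beside these values. The summed FPKM of 13 endothelial genes was 450 to 638 in WT and 530 to 809 in KO, with *Cldn5* and *Tek* separated on the higher side. For 12 Schwann cell genes it was 104 to 133 in WT and 121 to 290 in KO, and for 12 neuron genes 20.1 to 41.4 and 43.4 to 88.5. Sums over 10 erythroid genes were 3865 to 7586 and 4287 to 24364, over 9 leukocyte genes 18.9 to 147 and 48.0 to 225, and over 10 fibroblast genes 4261 to 7622 and 3457 to 6939. Heart muscle genes, of which *Nppb* was listed at 0 in every library, summed to 174 to 2149 and 243 to 2489 FPKM, and skeletal muscle genes, with *Myod1* at 0 in every library, to 38.2 to 71.0 and 20.2 to 84.0. The contractile genes themselves summed to 8966 to 14855 FPKM in WT and 4382 to 8802 in KO. The neuron sums thus did not overlap between the groups, with KO above WT. On that side 5 of the 12 Schwann cell genes were separated too, beside 8.21% of all genes tested. The part of these markers in the results was not tested. With WT 1 and KO 2 left out for their heart transcripts, a choice made after seeing the data, the log2 fold change was -1.005 for *Srf* and 0.75 for *Mef2c*, and *Srf*, *Mef2d* and *Mef2c* were again the 3 separated regulators, beside 38% of all genes with 4 libraries.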

How the data were processed

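After quality trimming, the authors used TopHat2 for alignment against mm10 and Cufflinks to quantify genes, and the deposited table gives 1 FPKM value per gene and library. Versions, annotation, and strand setting are not given in the sources used here. Groups came from the sample titles. FPKM values hold no counts, so no count test was used. Genes with a mean of at least 1 FPKM (12955 of 23997) were compared on log2(FPKM + 0.1) with limma 3.58.1 in R 4.3.3 (mean-variance trend, two-sided, Benjamini-Hochberg, threshold 0.05), since Cuffdiff needs aligned reads. For named genes a two-sided exact permutation test of log2(FPKM + 0.1) was added.

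The regulators and gene lists were chosen with earlier results of these data known. Named genes are the regulators, up to 6 genes per list with the largest log2 fold changes and a mean of at least 5 FPKM, *Myh11*, *Tagln*, *Actg2*, *Acta2*, and 5 genes most like *Srf* or *Myocd*. Other genes were named after their values were seen. The result of 1 gene list is not reported here. Gene positions came from GENCODE vM21 and promoter sequences from RefSeq (GRCm38.p6). Without a stated strand setting, some reads of *Mef2a*, *Mef2d*, *Mkl1*, *Mkl2*, and *Gata6* cannot be told from those of genes on the other strand. These are the reads in shared exon bases, from 10 of 6114 for *Mkl1* to 531 of 5985 for *Mef2d*. *Elk1* shares 76 of its 5381 exon bases with *Uxt* on the same strand.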

Additional observations from a re-analysis of the deposited data

How the results depend on the processing

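All 10 regulators stayed above the adjusted threshold in limma in each of the 15 alternatives (other pseudocounts, filters, and scalings, no mean-variance trend, the replicate block, each library left out, and the pair of libraries high in heart muscle transcripts left out, the last chosen after the data were seen). The lowest adjusted p was 0.365, for *Srf* with a mean of at least 5 FPKM. *Srf*, *Myocd*, *Mkl1*, *Mef2d*, and *Elk1* kept a negative log2 fold change and *Mef2c* a positive one. *Srf* lay between -1.10 and -0.85. *Mef2a* turned to 0.063 with quantile normalization and to 0.076 without the pair of libraries high in heart muscle transcripts. With each library left out, the log2 fold change ran from -0.12 to 0.17 for *Mef2a*, from -0.38 to 0.12 for *Mkl2*, from -0.15 to 0.30 for *Gata6*, and from -0.25 to 0.13 for *Tead1*. The cause was not tested.

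The number of separated regulators ran from 3 to 5 with a library left out. It was 5 without WT 2, where *Myocd* and *Tead1* joined, and 5 without KO 0, where *Myocd* and *Mkl1* joined, beside 25.9% and 26.7% of all genes. The number of genes called, 1, became 2 without the trend, 3 without the pair of libraries high in heart muscle transcripts, and 1 to 3 with a library left out (3 without WT 1, KO 0, or KO 2). The median of the contractile list ran from -1.06 to -0.48 and its difference from *Myocd* from -0.63 to -0.20. Of its 30 genes, 29 were below 0 with log2(FPKM + 1) and with quantile normalization. With a library left out, that count ran from 27 (without WT 0) to 30. Deviations of libraries with the same number had low correlations across genes (0.122, -0.0761, and -0.00878), beside -0.12 to 0.144 for unlike numbers. With 3 libraries per group, this cannot exclude that the numbers pair them. The replicate block called 1 gene and 0 regulators. With the block, the unadjusted limma p was 0.023 for *Myocd* (0.086 without it) and 0.014 for *Srf* (0.0047 without it). FPKM without counts gives no counting error, and the 3 libraries of a group limit the precision.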

Other observations

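Motifs of the other regulators were searched in the same promoter windows, on both strands, as a description only. The MCAT letters CATTCC, which TEAD factors bind, were in 14.7% of the 32851 windows. They were in 44.4% of the windows of YAP and TEAD target genes, at 8 of 16 genes with a window (*Cyr61*, *Ankrd1*, *Amotl2*, *Axl*, *Lats2*, *Crim1*, *Ajuba*, and *Ptpn14*). For the contractile genes they were in 25.8% of the windows, at 8 of 25 genes. The share was 26.7% for the ternary complex factor targets, 18.8% for the MRTF targets and 16.7% for the regulators. The MEF2 site was in 3.19% of all windows, in 3.23% of those of contractile genes (1 gene, *Synpo2*), and in 16.7% of those of regulators (*Mef2a* and *Mkl2*). It was in 12.5% of those of MRTF targets and in 0 of those of the ternary complex factor and YAP and TEAD targets. The letters AGATAA, which GATA6 and its relatives bind, were in 11.2% of all windows and in 0 of the 25 contractile genes and 0 of the 7 regulators with a window. They were in 12.5% of the windows of MRTF targets, 11.1% of those of YAP and TEAD targets and 0 of those of ternary complex factor targets.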
